A study of Homo sapiens with 4 samples.

Results

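This report describes 43 genes that code for core proteins of the spliceosome and for heterogeneous nuclear ribonucleoproteins (hnRNPs). They were chosen by symbol, as Sm proteins, proteins of the U1, U2, U4/U6 and U5 small nuclear ribonucleoproteins (snRNPs), PRP19 complex proteins and hnRNPs, and each symbol matched 1 row of the 56612 genes in the table. All 43 were abundant enough to be tested among 16817 genes. The 4 RNA-seq libraries came from TE5, a human esophageal squamous carcinoma cell line. The 2 shControl libraries, whose genotype label is WT, came from cells carrying a control short hairpin RNA, and the 2 shNUP153 libraries, labelled NUP153 knockdown, from cells carrying hairpin RNA against NUP153, a nucleoporin of the nuclear basket. Cells of both groups were infected with lentivirus, selected with puromycin and grown for a further 7 days. Whether replicates were infected separately, and whether the shNUP153 libraries share a hairpin, is not in the labels. The p-values therefore measure only spread among these samples, possibly technical, and effects of a hairpin on other genes cannot be told apart from effects of NUP153 loss.

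The spliceosome removes introns from pre-mRNA. Each of its snRNPs carries a small nuclear RNA held by a ring of Sm proteins or, in U6, of LSM proteins, to which proteins particular to U1, U2 or U5 are added. U1 recognises the 5′ splice site, U2 with SF3A, SF3B and U2AF recognises the branch region and the 3′ splice site, and the U4/U6.U5 tri-snRNP and the PRP19 complex build and stabilise the catalytic centre. The hnRNPs are abundant nuclear proteins that coat pre-mRNA and influence splice site choice, RNA stability and export. NUP153 sits on the nuclear side of the pore, through which spliced mRNA leaves.

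NUP153 (ENSG00000124789) had levels of 149 and 142 CPM (counts scaled to library size) in shControl and 67.9 and 81.9 CPM in shNUP153, a log2 fold change of −0.96 (edgeR, SE 0.06, adjusted p = 1.05e-14). The groups did not overlap. Libraries held 22606593 to 27396268 counts, of which 1.20% to 1.31% fell in the 43 genes. Squamous epithelial markers were present, with TP63 at 231 to 250.2 CPM, SFN at 764 to 809, DSG3 at 114 to 127 and KRT6A at 29.4 to 37.7. KRT5 measured 23.7 and 25.1 CPM in shControl and 13.8 and 16.8 in shNUP153 (log2 fold change −0.68), while KRT17 measured 745 and 724 against 1252 and 1238 (0.76). Leukocyte PTPRC and CD3E, fibroblast PDGFRB and COL1A2 and endothelial PECAM1 had 0 to 12 counts per library. CDH5, usually endothelial, measured 11.3 and 9.64 CPM in shControl and 22.7 and 22.2 in shNUP153, and CDH1, an epithelial cadherin, 581 and 560 against 376 and 364. The part of such marker differences in the results was not tested.

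Of the 43 genes, 27 were lower in shNUP153 and 0 were higher by edgeR's quasi-likelihood test at an adjusted p under 0.05. The share lower was 62.8%, where 17.4% of all tested genes were lower, 15.0% were higher and 32.4% were called in either direction. Among the 4591 tested genes with a mean of at least 50 CPM, 33.7% were lower, 18.2% higher and 51.9% either, and 25 of the 40 spliceosome and hnRNP genes at that level were lower. The median log2 fold change of the 43 genes was −0.17, against 0.01 over all tested genes and −0.05 over those at 50 CPM or more. Changes were small, between 1.09-fold and 1.42-fold for the genes called. In bulk RNA, fewer cells expressing a gene and less RNA per cell cannot be told apart.

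At an unadjusted p under 0.05 the same count of 27 was lower and 2 were higher, PRPF6 and HNRNPH1. DESeq2 called 24 lower and 0 higher, and limma-voom 27 lower and 0 higher. Scaling by total counts, with no correction for composition, gave 18 lower and 4 higher (SNRPB2, SF3A2, PRPF6 and HNRNPH1). Upper-quartile scaling gave 21 lower and 3 higher, so the call for some small changes depends on the scaling. The table as a whole shifted too. Of all genes, 2114 were lower and 3573 higher with total counts and 2338 and 3177 with upper-quartile scaling. The main fit had 2927 and 2521. Without shNUP153 replicate 1, 15 were lower and 0 higher, and without shNUP153 replicate 2, 18 were lower and 0 higher. The calls of 13 of the 27 were kept under each of the 13 alternatives run: SNRPD2, SF3B3, PRPF8, EFTUD2, SNRNP40, PRPF19, HNRNPA1, HNRNPA2B1, HNRNPC, HNRNPF, HNRNPK, HNRNPL and HNRNPR.

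**Figure D1:**
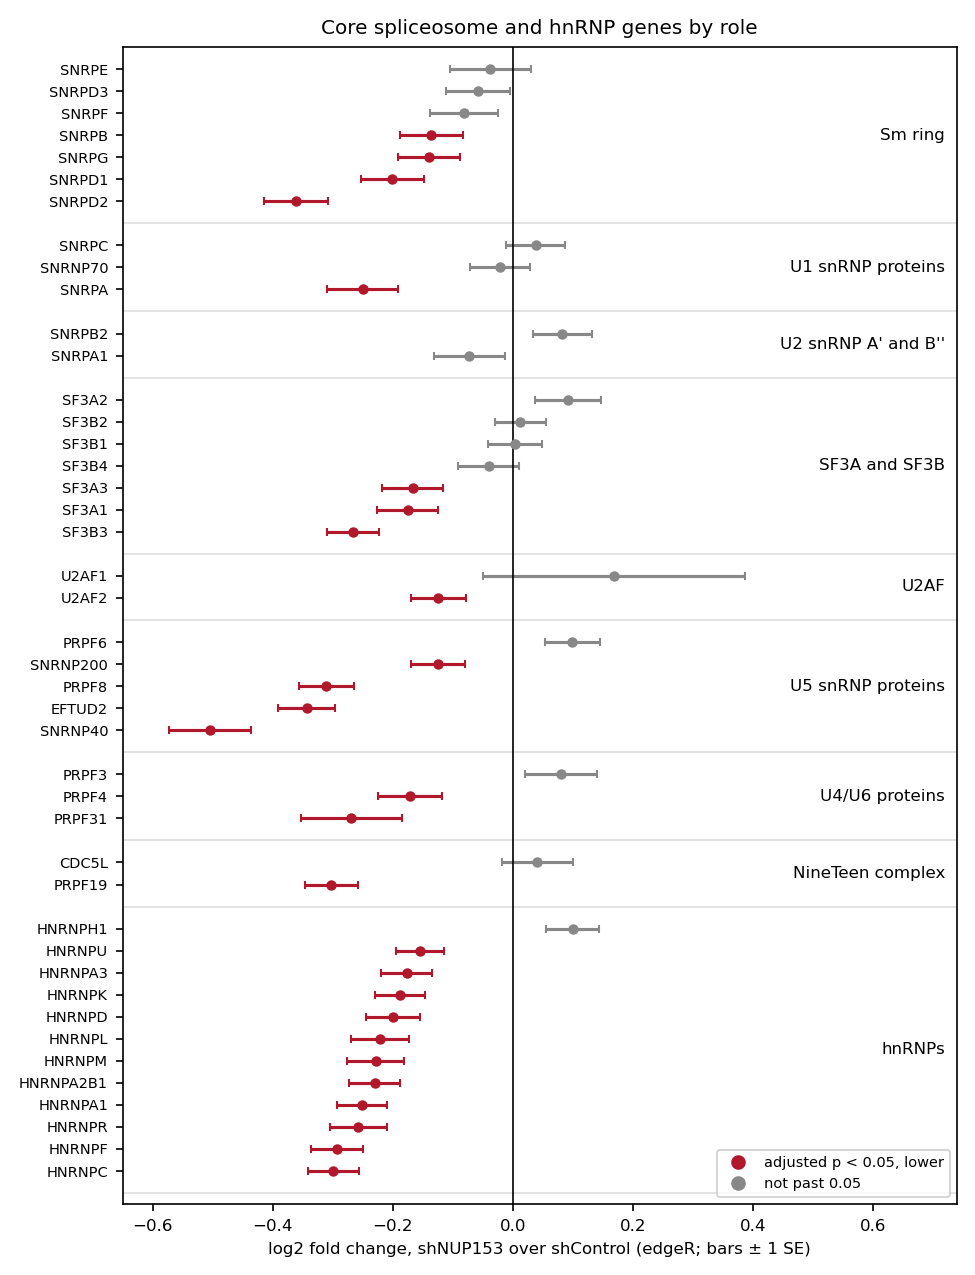
Log2 fold change of each gene, shNUP153 over shControl, grouped by role, with bars of 1 SE either side from the edgeR fit and red for the 27 genes called lower. The hnRNP group lies left of 0 except for HNRNPH1, and SNRNP40 at −0.50 is farthest left.

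Both shNUP153 libraries lay below both shControl libraries for 28 genes and above them for 6, and the groups overlapped for 9. Over all tested genes, 64.4% did not overlap, 32.2% with lower and 32.2% with higher levels. Relative to each gene's mean in shControl, the median over the 43 genes was −0.20 on the log2 scale in shNUP153 replicate 1 and −0.15 in replicate 2, and 34 and 32 genes lay below that mean. Both shNUP153 libraries were thus low, replicate 1 more so. Summed over the 43 genes, the level was 13309 and 13331 CPM in shControl and 11709.7 and 12021 CPM in shNUP153.

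Of the 12 hnRNPs, 11 were lower and 0 higher (median log2 fold change −0.22). Of the other 31 genes, 16 were lower and 0 higher (median −0.12). Among all tested genes 17.4% were lower, and among those at 50 CPM or more 33.7%. Counts for each role below stand beside the same shares. Under total-count scaling 10 hnRNPs were lower and HNRNPH1 was higher. Their summed level was 7676 and 7636 CPM in shControl and 6538 and 6751 CPM in shNUP153, 0.868 of the shControl mean. The hnRNPs had means of 187 to 1356 CPM, and most of the other 31 genes were less abundant than any of them. SEs were 0.04 to 0.05 for the hnRNPs and 0.04 to 0.22 for the others, where U2AF1 had 0.22 and PRPF31, the next largest, 0.08. The smallest changes called were 1.09-fold, for U2AF2 and SNRNP200, and among hnRNPs 1.11-fold, for HNRNPU. Whether hnRNPs differ from the other genes of the set was not tested.

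HNRNPA1, a splicing repressor that binds exonic and intronic silencers, measured 1489 and 1458 CPM in shControl and 1203 and 1272 CPM in shNUP153 (1473 ± 21.5 against 1238 ± 48.7, SD, n = 2 each). It fell 1.19-fold (log2 fold change −0.25, SE 0.04, edgeR adjusted p = 8.76e-06), with no overlap between groups. Its relative HNRNPA2B1, a reader of RNA sorting signals, measured 644 and 631 CPM in shControl and 535 and 552 in shNUP153. It fell 1.17-fold (−0.23, SE 0.04, adjusted p = 5.54e-05). HNRNPA3, the third gene of this A/B type, measured 687 and 676 CPM against 590.4 and 615 and fell 1.13-fold (−0.18, SE 0.04, adjusted p = 0.00133). The adjusted p for HNRNPA3 was 0.0689 without shNUP153 replicate 1. HNRNPA2B1 shares 368 exonic bases with CBX3 on the opposite strand, and CBX3 had a log2 fold change of −0.23 too. Without a stated strand in the counting, part of the reads of this pair cannot be separated.

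HNRNPC, which binds uridine tracts and helps sort RNA for export, measured 757 and 734 CPM in shControl and 597 and 614 in shNUP153. The difference was the largest among the 12 hnRNPs, 1.23-fold lower (log2 fold change −0.30, SE 0.04, adjusted p = 7.47e-07). HNRNPU, a nuclear matrix-associated protein that binds chromatin and RNA, measured 1114 and 1109 CPM in shControl and 996 and 1002 in shNUP153. It fell by less, 1.11-fold (−0.15, SE 0.04, adjusted p = 0.00297), and with total-count scaling its adjusted p was 0.078. HNRNPU shares 3502 exonic bases with COX20 on the opposite strand. COX20 held 197 counts over the 4 libraries beside 103887 for HNRNPU, and how reads in the shared bases were assigned is not stated.

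HNRNPK, which binds cytidine-rich RNA, measured 808 and 818 CPM in shControl and 708 and 721 in shNUP153 and fell 1.14-fold (adjusted p = 0.000554). HNRNPL, which binds CA repeats, measured 197 and 205 CPM against 174 and 172 and fell 1.17-fold (adjusted p = 0.00042). Neither gene's libraries overlapped between groups. HNRNPR, an RNA-binding protein related to SYNCRIP, went from 246 and 232 CPM to 198 and 202 and fell 1.20-fold (adjusted p = 5.51e-05). HNRNPD (AUF1), which binds AU-rich elements of unstable mRNAs, measured 392 and 416 CPM in shControl and 344 and 359 in shNUP153, 1.15-fold lower (adjusted p = 0.000763). HNRNPM, which binds GU-rich RNA, measured 410.0 and 437 CPM against 345 and 378, 1.17-fold lower (adjusted p = 0.000276). Leaving out shNUP153 replicate 1 gave adjusted p = 0.0623 for HNRNPD and 0.0724 for HNRNPM.

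HNRNPF and HNRNPH1 code for related proteins that bind G-rich tracts near splice sites. HNRNPF measured 536 and 534 CPM in shControl and 438 and 436 in shNUP153, with replicates close together. It fell 1.23-fold (log2 fold change −0.29, SE 0.04, adjusted p = 1.32e-06). HNRNPH1 measured 396 and 386 CPM in shControl and 409 and 428 in shNUP153. Its libraries did not overlap, with the higher pair in shNUP153, but it did not pass the test (0.10, SE 0.04, adjusted p = 0.0843). Its adjusted p was 0.0436 without shControl replicate 1, 0.00321 with total-count scaling, 0.0114 with upper-quartile scaling and 0.0198 with a minimum mean of 5 CPM. The difference between HNRNPF and HNRNPH1 was not itself tested.

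**Figure D2:**
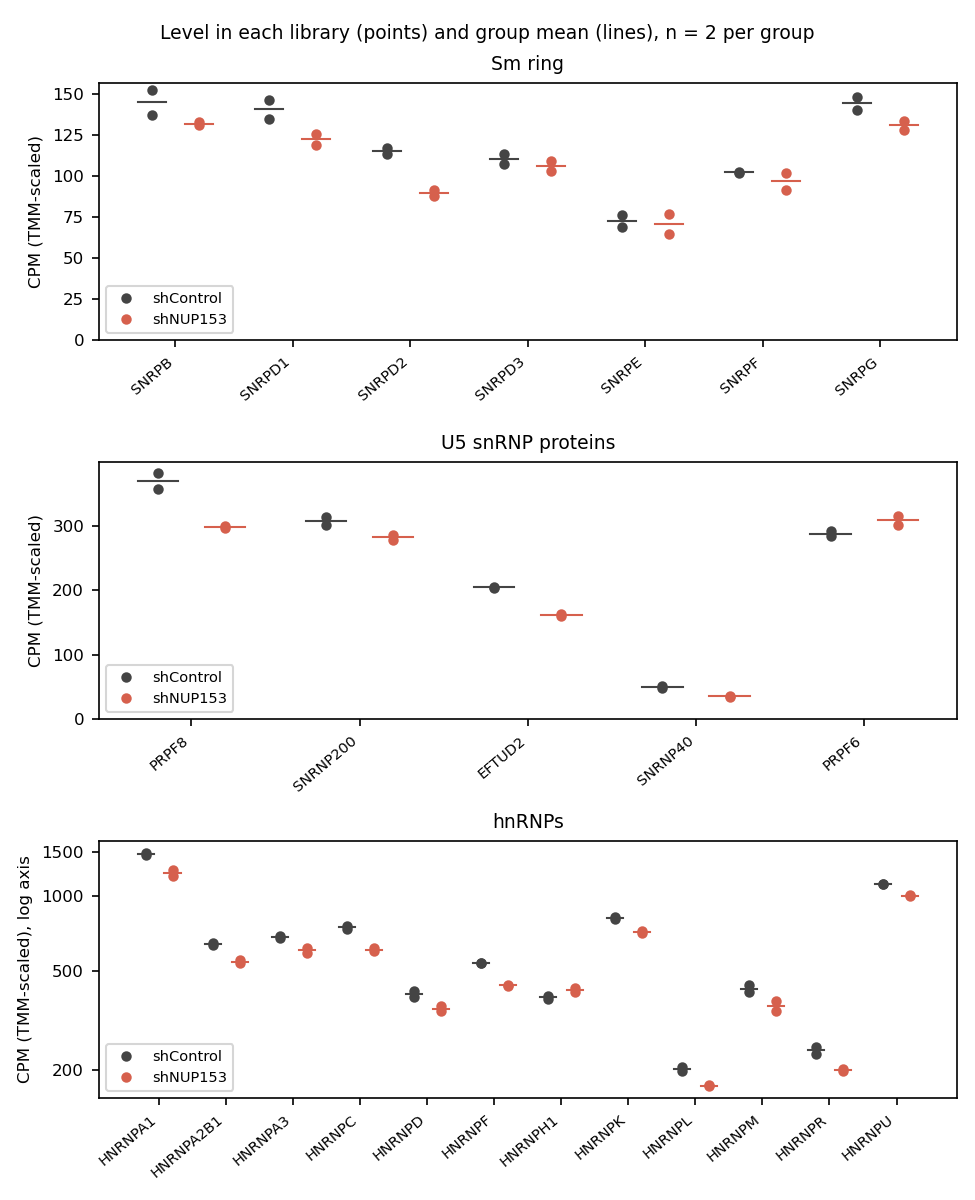
Level in CPM of each Sm ring, U5 snRNP and hnRNP gene in each library (points) with group means (lines). In the lowest panel, on a log axis, both shNUP153 points lie below both shControl points for each hnRNP gene but HNRNPH1.

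The sequences before the starts of 4 genes are shown because they hold the largest difference among the 43 (SNRNP40), the largest among hnRNPs (HNRNPC) and the HNRNPF and HNRNPH1 pair. These genes were chosen after their values were seen. Each is the 250 bases before a RefSeq start of the gene (GRCh38.p14), written 5′ to 3′ on the gene's strand. Only the first entry listed for a gene was used, so any other start it has was not searched. Capitals mark matches, on either strand, to 8 motifs, none of which overlap in these windows. The GC box bound by SP factors was searched as GGGCGG. The CCAAT box bound by NF-Y was searched by the letters of its name. For ETS factors the letters were CCGGAAG. The E-box was read as CACGTG. The TATA box was read as TATAAA. The cAMP response element was read as TGACGTCA. Motifs of YY1 and NRF1 were searched too. The positions are chr1:31296789-31297038 for SNRNP40, chr14:21269443-21269692 for HNRNPC, chr10:43408858-43409107 for HNRNPF and chr5:179634785-179635034 for HNRNPH1, all on the minus strand.
SNRNP40: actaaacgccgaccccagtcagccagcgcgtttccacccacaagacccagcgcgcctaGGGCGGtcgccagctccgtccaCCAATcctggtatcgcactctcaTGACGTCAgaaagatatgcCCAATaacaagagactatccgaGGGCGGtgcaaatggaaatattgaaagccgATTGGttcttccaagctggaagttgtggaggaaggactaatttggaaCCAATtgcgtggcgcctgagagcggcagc
HNRNPC: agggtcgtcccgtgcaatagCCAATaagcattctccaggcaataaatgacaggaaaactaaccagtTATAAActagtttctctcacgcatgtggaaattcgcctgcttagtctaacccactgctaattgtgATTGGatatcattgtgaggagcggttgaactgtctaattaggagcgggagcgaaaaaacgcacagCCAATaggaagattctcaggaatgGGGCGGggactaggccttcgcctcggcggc
HNRNPF: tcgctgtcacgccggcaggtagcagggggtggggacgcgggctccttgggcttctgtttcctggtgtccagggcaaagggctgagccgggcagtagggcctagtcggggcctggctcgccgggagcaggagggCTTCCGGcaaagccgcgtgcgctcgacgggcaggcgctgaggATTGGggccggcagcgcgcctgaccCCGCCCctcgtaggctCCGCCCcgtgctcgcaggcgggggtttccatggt
HNRNPH1: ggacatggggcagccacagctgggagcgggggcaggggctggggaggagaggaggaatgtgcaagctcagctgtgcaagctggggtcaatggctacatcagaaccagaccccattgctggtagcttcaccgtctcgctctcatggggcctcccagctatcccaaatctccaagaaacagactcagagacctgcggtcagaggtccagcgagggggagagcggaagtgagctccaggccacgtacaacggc

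The first 3 windows hold GC and CCAAT boxes, and the HNRNPH1 window holds none of the 8 motifs at the start used. RefSeq entries were matched for 39 of the 43 genes (SNRPD1, SF3B3, PRPF3 and HNRNPA1 were unmatched). CCAAT stood in the windows of 16 of these 39 (41.0%), against 32.0% of 35116 RefSeq windows of the same length. Those 35116 windows were limited neither to tested genes nor to 1 entry per gene, unlike the 39. Shares among windows of expressed genes were not computed, so these differences cannot be read as particular to the 39. CCAAT stood in 13 of the 24 matched genes called lower and in 3 of the 15 others. This split by call was made for each of the 8 motifs and was not tested. The ETS motif stood in 43.6% of the 39, against 8.52% of all windows, in 9 of the 24 lower genes and 8 of the other 15. GC boxes were found in 56.4% against 42.6%, E-boxes in 12.8% against 6.35%, cAMP response elements in 2.56% against 1.65% and TATA boxes in 7.69% against 10.7%. Motifs of NRF1 and YY1, which stood in 1.03% and 0.373% of all windows, stood in 0 of the 39, a number too small to set against such shares. A match is a run of letters and no evidence of binding.

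Of the 7 genes of the Sm ring, which is loaded onto U1, U2, U4 and U5 RNA, 4 were lower and 0 higher (median log2 fold change −0.14). SNRPD2 measured 114 and 117 CPM in shControl and 88.1 and 92.0 in shNUP153. It fell 1.28-fold (−0.36, SE 0.05, adjusted p = 1.65e-06), the largest difference in the ring. SNRPD1 measured 147 and 135 CPM against 119 and 126 and fell 1.15-fold (−0.20, SE 0.05, adjusted p = 0.00318), though its adjusted p was 0.141 without shNUP153 replicate 1. The groups did not overlap for either gene. SNRPB, which codes for the B and B′ proteins, measured 138 and 153 CPM in shControl and 133 and 131 in shNUP153 (−0.14, SE 0.05, adjusted p = 0.0455). SNRPG measured 148 and 141 CPM against 128 and 134 (−0.14, SE 0.05, adjusted p = 0.0329). Calls for SNRPB and SNRPG were each lost under 7 of 13 alternatives. These included leaving out shControl replicate 2 (SNRPB, adjusted p = 0.418), shControl replicate 1 (SNRPG, 0.131), shNUP153 replicate 1 (0.203 and 0.322) and shNUP153 replicate 2 (0.267 and 0.103), and DESeq2 (0.114 and 0.0754).

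The other members of the ring did not pass. SNRPD3 measured 108 and 114 CPM in shControl and 103 and 109.7 in shNUP153, a log2 fold change of −0.06 (adjusted p = 0.449). SNRPF measured 102 and 103 CPM against 91.7 and 102 (−0.08, adjusted p = 0.291), and SNRPE 76.2 and 69.4 against 64.5 and 77.2 (−0.04, adjusted p = 0.718). All 3 overlapped between groups. SNRPD3 shares exonic bases with GUCD1 on the opposite strand (321) and GGT1 on the same strand (306), and both of those fell (log2 fold changes −0.21 and −0.85). SNRPN, a close relative of SNRPB, had 0 counts in all libraries, and 25.8% of its 50-base words also occur in transcripts of other genes, first among them SNURF.

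Named pseudogenes and copies held few counts beside those of most members. Of 183 such rows, 97 held counts, 6173 in all, beside 764044 for the 20 members they copy. For SNRPG the pseudogenes held 13.1% of the pair's counts (12.01% to 13.54% by library), mainly SNRPGP10 and SNRPGP2. Copies of U2AF1 held 17.8%, those of HNRNPA1 1.80%, of SNRPE 1.67% and of HNRNPA3 1.08%. Summing the copies into the members before the fit left 27 lower and 0 higher. Of the 50-base words of HNRNPA1 23.0% also occur in transcripts of other genes, of HNRNPA3 18.1% and of HNRNPF 0%. How reads with several matches were counted is not stated, so counts in copies do not show how many reads of a member were lost.

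Of the U1 proteins, SNRPA (U1-A), which binds a stem-loop of U1 RNA, measured 73.5 and 70.9 CPM in shControl and 62.0 and 59.3 in shNUP153. It fell 1.19-fold (log2 fold change −0.25, SE 0.06, adjusted p = 0.00116), and its adjusted p was 0.0674 without shNUP153 replicate 2. SNRNP70 (U1-70K), which also binds U1 RNA and contacts SR proteins, measured 234 and 258 CPM against 236 and 249 (−0.02, adjusted p = 0.788), overlapping between groups. SNRPC (U1-C), which helps U1 meet the 5′ splice site, measured 140.4 and 138 CPM against 144 and 143 (0.04, adjusted p = 0.605). So 1 of the 3 U1 genes was lower. The U2 pair, SNRPA1 (U2-A′) and SNRPB2 (U2-B″), held 0 genes called by edgeR, with 0 at an unadjusted p under 0.05 and 0 by DESeq2. SNRPA1 measured 66.7 and 65.9 CPM against 64.6 and 61.4 (−0.07) and SNRPB2 142 and 137 against 149 and 146 (0.08). Under total-count and upper-quartile scaling SNRPB2 was higher, with log2 fold changes of 0.15 and 0.13 (adjusted p = 0.0219 and 0.0484).

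SF3A and SF3B are subcomplexes of U2 that hold the branch region. Of their 7 genes, 3 were lower and 0 higher. SF3B3, a scaffold protein of SF3B, measured 469 and 469 CPM in shControl and 384 and 396 in shNUP153, and fell 1.20-fold (log2 fold change −0.27, SE 0.04, adjusted p = 8.91e-06). SF3A1 measured 129 and 129 CPM against 112 and 117 (−0.18, SE 0.05, adjusted p = 0.00779), and SF3A3 145 and 144 against 126 and 132 (−0.17, SE 0.05, adjusted p = 0.00962). For these 3 genes the shControl replicates were close and both shNUP153 libraries lay below them. SF3A1 and SF3A3 lost their calls when shNUP153 replicate 1 was left out (adjusted p = 0.171 and 0.2002), when shNUP153 replicate 2 was (0.0513 and 0.0516) and with total-count scaling (0.0962 and 0.117), and that of SF3A3 with upper-quartile scaling (0.0564).

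SF3B1, whose protein grips the branch site adenosine and is often mutated in blood cancers, was level between groups in these libraries. It measured 326 and 313 CPM in shControl and 322 and 318 in shNUP153 (log2 fold change 0.004, SE 0.05, adjusted p = 0.957). SF3B2 measured 588 and 607 CPM against 605 and 601 (0.01, adjusted p = 0.861), and SF3B4 144 and 154 against 145 and 146 (−0.04, adjusted p = 0.591). These 3 genes overlapped between groups. SF3A2 measured 91.1 and 96.0 CPM against 102 and 97.8 (0.09, adjusted p = 0.206), and was higher with total-count scaling (0.16, adjusted p = 0.025). It shares 398 exonic bases with PLEKHJ1 on the opposite strand.

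U2AF2, the subunit that binds the polypyrimidine tract, measured 353 and 375 CPM in shControl and 329 and 339 in shNUP153. It fell 1.09-fold (log2 fold change −0.12, SE 0.05, adjusted p = 0.0337), and this call was lost under 6 of 13 alternatives. Among them were leaving out shControl replicate 2 (adjusted p = 0.166), shNUP153 replicate 1 (0.281) and shNUP153 replicate 2 (0.114). U2AF1, the subunit that reads the AG of the 3′ splice site, was listed at only 3.07 and 2.78 CPM in shControl and 2.54 and 4.05 in shNUP153 (0.17, SE 0.22, adjusted p = 0.603). In GENCODE 29 transcripts, 94.3% of the 50-base words of U2AF1 also occur in U2AF1L5, a near-identical copy, which held 1 to 4 counts per library. CD99, whose 2 rows share 100% of their words, had 0 counts in all libraries. The sources used here do not say how reads with several matches were counted, so the value of U2AF1 gives no comparison of its level with the other genes.

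In the U5 snRNP, 4 of 5 genes were lower and 0 higher (median log2 fold change −0.31). SNRNP40, a WD-repeat protein of U5, measured 48.8 and 51.5 CPM in shControl and 35.9 and 34.8 in shNUP153 (50.1 ± 1.92 against 35.4 ± 0.823, SD, n = 2 each). It fell 1.42-fold (−0.50, SE 0.07, adjusted p = 3.37e-07), the largest difference of the 43 genes. EFTUD2, the GTPase that helps drive remodelling and disassembly, measured 204 and 205 CPM against 162 and 160.0 and fell 1.27-fold (−0.34, SE 0.05, adjusted p = 5.14e-07). PRPF8, the protein that cradles the catalytic RNA, measured 382 and 357 CPM in shControl and 299 and 296 in shNUP153. It fell 1.24-fold (−0.31, SE 0.05, adjusted p = 1.48e-06). For SNRNP40, EFTUD2 and PRPF8 the replicates of a group lay close together relative to the gap between groups.

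SNRNP200, the helicase that unwinds U4 from U6, measured 301 and 314 CPM in shControl and 278 and 285 in shNUP153 and fell 1.09-fold (log2 fold change −0.12, SE 0.05, adjusted p = 0.0335). That call was lost under 6 of 13 alternatives, among them leaving out shControl replicate 2 (adjusted p = 0.106), shNUP153 replicate 1 (0.268) and shNUP153 replicate 2 (0.125). PRPF6, which bridges U5 and U4/U6, measured 284 and 292 CPM against 302 and 315. Its libraries did not overlap and were higher in shNUP153, yet it did not pass (0.10, SE 0.05, adjusted p = 0.0949). Its adjusted p was 0.00415 with total-count scaling, 0.014 with upper-quartile scaling and 0.0234 with a minimum mean of 5 CPM. SNRNP40, EFTUD2, PRPF8 and SNRNP200 were thus lower while PRPF6 of the same particle was not.

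Among the U4/U6 proteins, PRPF4 measured 115 and 109.6 CPM in shControl and 98.9 and 100.3 in shNUP153 (log2 fold change −0.17, SE 0.05, adjusted p = 0.0116). PRPF31, which holds U4/U6 and U5 together and is mutated in a form of retinitis pigmentosa, measured 26.1 and 29.4 CPM against 22.5 and 23.7 (−0.27, SE 0.08, adjusted p = 0.0127). Neither overlapped between groups. PRPF3, the partner of PRPF4, measured 63.5 and 62.9 CPM against 64.3 and 69.3 (0.08, adjusted p = 0.336). Without shNUP153 replicate 1 the adjusted p was 0.149 for PRPF4 and 0.173 for PRPF31, and without shNUP153 replicate 2 it was 0.0959 and 0.0604. PRPF31 was also lost without shControl replicate 2 (adjusted p = 0.1600) and with DESeq2 (0.107), and with total-count scaling neither passed (0.124 and 0.0569). PRPF4 shares 208 exonic bases with CDC26 and PRPF31 266 with TFPT on the opposite strand, and CDC26 fell as well (−0.26).

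The PRP19 complex is named for PRPF19, a ubiquitin ligase that steadies the activated spliceosome. PRPF19 measured 407 and 414 CPM in shControl and 332 and 334 in shNUP153 (411 ± 4.59 against 333 ± 1.13, SD, n = 2 each). It fell 1.23-fold (log2 fold change −0.30, SE 0.04, adjusted p = 1.20e-06). Its partner CDC5L, a Myb-related protein, measured 66.0 and 66.1 CPM in shControl and 66.1 and 69.8 in shNUP153 (0.04, SE 0.06, adjusted p = 0.649). PRPF19 was lower and CDC5L was not.

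Scaled to length, as CPM per kilobase of annotated exon in GENCODE 29, the shControl level was highest for HNRNPA1 at 289, followed by HNRNPF at 165, HNRNPK at 159 and PRPF19 at 149.9. The lowest apart from U2AF1 were CDC5L at 10.3 and PRPF31 at 10.4. On that scale PRPF19 stood near HNRNPF and HNRNPK, below HNRNPA1 and far above its partner CDC5L. In shNUP153 the same quantity was 243 for HNRNPA1, 134 for HNRNPF, 139.7 for HNRNPK and 122 for PRPF19. The length used joins the exons of all annotated transcripts of a gene and can exceed that of its mRNA. For HNRNPU it was 22.5 kb, which gave 49.4 in shControl. The order of genes on this scale therefore depends on the annotation, and lengths of the mRNAs present were not measured.

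**Figure D3:**
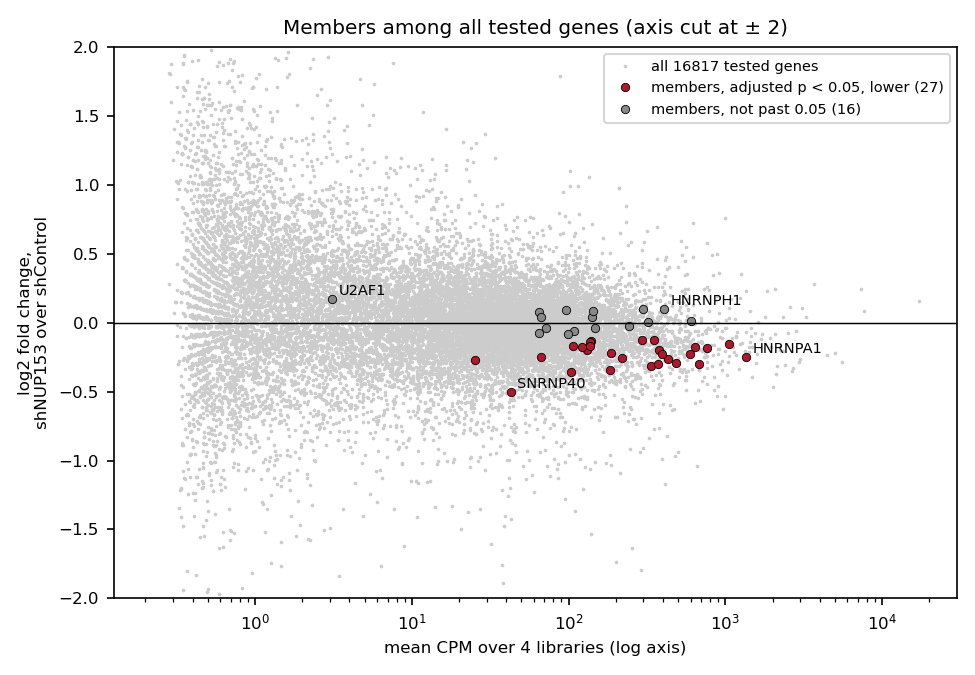
Log2 fold change against mean CPM (log axis) for all 16817 tested genes as light dots and the 43 spliceosome and hnRNP genes as outlined points, red for the 27 called lower and grey for the rest. The 43 genes lie between −0.50 and 0.17 and mostly among abundant genes, and 68 tested genes lie beyond the axis limit of 2.

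A list of 101 related genes outside the 43, written with earlier results of these data known, held smaller shares of calls. The median log2 fold change of the 100 tested was −0.07. Of all tested genes 17.4% were lower and 15.0% higher, and of those at 50 CPM or more 33.7% and 18.2%. Many related genes lay at that level, and their share called there was not computed. Of the 100 tested, 22 were lower (22%) and 7 were higher (7%). Without shNUP153 replicate 1 these counts were 9 and 1, without shNUP153 replicate 2 they were 12 and 0, with total-count scaling they were 11 and 15, and with DESeq2 they were 16 and 0, so that none of the rises named here passed by DESeq2. The lowest median was that of 17 other hnRNPs, of which 9 were lower and 0 higher (−0.14). PTBP1, the polypyrimidine tract binding splicing repressor, measured 721 and 770 CPM in shControl and 607 and 619 in shNUP153 (−0.28, SE 0.04, adjusted p = 3.11e-06). RBMX measured 291 and 306 CPM against 244 and 262 (−0.24, adjusted p = 0.000145), and PTBP3, a relative of PTBP1, 285 and 259 against 232 and 232 (−0.23, adjusted p = 0.000294).

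In the LSM ring, which binds U6 RNA or, with LSM1, mRNA due for decay, 2 of 8 genes were lower and 1 was higher. LSM2 measured 60.0 and 54.6 CPM in shControl and 44.8 and 45.1 in shNUP153 (−0.35, adjusted p = 6.92e-05), and LSM7 72.2 and 72.3 against 61.7 and 60.6 (−0.24). LSM1, the subunit of the cytoplasmic ring, was the one that rose, from 13.6 and 15.7 CPM to 18.0 and 17.2 (0.26, adjusted p = 0.0425). Among U2-related factors, 3 of 10 were lower and 0 higher, the helicase gene DDX46 (−0.18), PUF60 (−0.15) and RBM17 (−0.14). In the tri-snRNP list 1 of 10 was lower, USP39 (97.7 and 99.96 CPM against 83.3 and 81.6, −0.26), and 0 were higher.

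Of 14 other PRP19 complex genes and related ones, 2 rose, BCAS2 (0.25, adjusted p = 0.0225) and BUD31 (0.16, adjusted p = 0.0337), and 0 were lower. Of 13 helicases and step factors 1 rose, PRPF39 (0.22, adjusted p = 0.0143), a U1-associated protein, and 0 were lower. In snRNP assembly and small nuclear RNA transport, 5 of 19 were lower and 2 higher. The cap-binding gene NCBP1 measured 118 and 117 CPM in shControl and 95.4 and 91.2 in shNUP153 (−0.33, adjusted p = 5.54e-06), and TGS1, which trimethylates the cap, was lower by −0.29. PHAX, the adaptor that takes small nuclear RNA out of the nucleus, rose from 35.5 and 36.5 CPM to 41.7 and 42.8 (0.23, adjusted p = 0.0105). Of 9 minor spliceosome genes, PDCD7 (−0.32) and SNRNP25 (−0.32) were lower and ZRSR2, a relative of U2AF1, was higher (0.27, adjusted p = 0.00601).

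**Figure D4:**
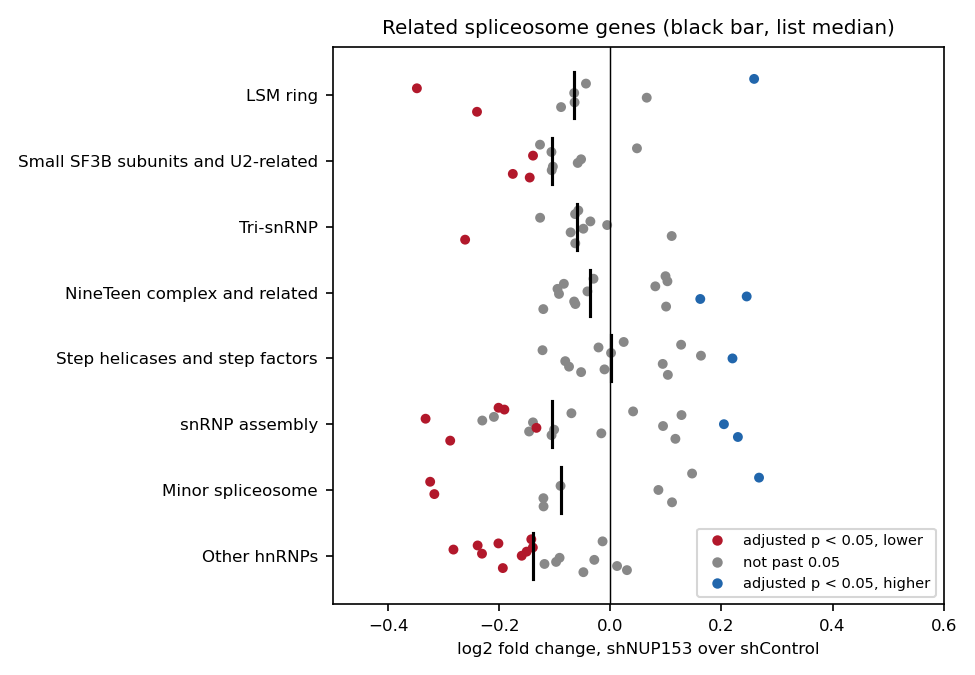
Log2 fold change, shNUP153 over shControl, of the 100 tested related genes by list, with 1 point per gene and the list median as a black bar. Of the points, 22 are red (lower), 7 blue (higher) and the rest grey, and the hnRNP list has the lowest median at −0.14.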

How the data were processed

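RNA-seq of 4 TE5 libraries (2 shControl, 2 shNUP153) was used. The deposited values are whole-number read counts per gene with a different total in each library, although the table's name says FPKM, and they were treated as unnormalized. Per the submitters' processing notes, kallisto, DESeq2, Bowtie2, deepTools and the build hg19 were used, with no role stated. The sources used here name no counter, annotation or strand setting. All 56612 gene IDs occur in GENCODE 29 (GRCh38). Of 56657 rows, 45 repeated a gene ID and were summed with it, and 24486 were at 0 in all libraries.

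Genes were kept by filterByExpr (minimum count 10, minimum total 15), scaled by TMM and tested with edgeR 4.0.16 in R 4.3.3 (glmQLFit, glmQLFTest, two-sided, Benjamini-Hochberg over 16817 genes, threshold 0.05). Levels are CPM, the counts scaled to TMM library size, and SE is the absolute log2 fold change over the square root of F. The 4 libraries leave 2 residual degrees of freedom. DESeq2 1.42.0, limma 3.58.1 (voom), other scalings and filters, a replicate block, copies summed into members and each library left out were alternatives. The procedure was also run on counts simulated with the same spread setting for every gene. The smallest change planted there was larger than most of those called among the 43, so that run does not cover them. Replicates differed by more than sampling noise (chi-square per gene 3.57 and 3.09). Genes named are all 43 members, NUP153 and, per related list, up to 3 called genes with the smallest p plus the tested gene with the largest absolute change, and copies of members that hold counts, given mostly as sums. Overlap partners, markers and HNRNPA0, HNRNPH2 and HNRNPH3 of the other hnRNPs were named beside them. The members and lists were chosen with earlier results of these data known.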

Additional observations from a re-analysis of the deposited data

How the results depend on the processing

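Calls of small size depended on scaling and on which library was left out. Of 27 lower calls, 13 held under each of the 13 alternatives, and 4 of the 16 genes not called passed under at least 1. With total-count scaling the members' median log2 fold change was −0.10, 4 were higher (1 hnRNP, 3 others), 8 members outside the hnRNPs were lower, and 15 related genes were higher and 11 lower. With upper-quartile scaling these were −0.12, 3 (1 and 2), 10, 12 and 14. The median over all tested genes was 0.07 with total counts and 0.05 with upper-quartile scaling, against 0.01 in the main fit. With a minimum mean of 5 CPM, 2 members were higher (1 hnRNP and 1 other). With no filter on low counts 4 related genes were higher. With DESeq2, 0 related genes were higher, 1172 of all genes were higher and 3215 were called in all, against 2521 and 5448.

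Leaving out each library in turn gave 15 to 26 members lower and 0 to 1 higher, 8 to 11 hnRNPs lower and 0 to 1 higher, 7 to 15 others lower, 0 to 7 related genes higher and 9 to 25 lower, and 3072 to 5201 of all genes called (1303 to 2327 higher and 1769 to 2874 lower). Members called lower were 26 and 23 without shControl replicate 1 or 2 and 15 and 18 without shNUP153 replicate 1 or 2, and the cause was not tested.

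Sign changes were seen only for genes not called, and the cause was not tested. With total counts the log2 fold change was 0.0055 for SNRPD3, 0.025 for SNRPE, 0.042 for SNRNP70 and 0.023 for SF3B4, and with upper-quartile scaling 0.0058 for SNRPE, 0.022 for SNRNP70 and 0.0032 for SF3B4. SF3B1 was at −0.0068 with no filter and −0.0051 with DESeq2, and SNRNP70 at 0.0047 with the 5 CPM minimum. Leaving out each library gave ranges of −0.173 to 0.084 for SNRPE, −0.093 to 0.046 for SNRNP70, −0.031 to 0.030 for SF3B1, −0.013 to 0.029 for SF3B2, −0.089 to 0.0024 for SF3B4, −0.196 to 0.471 for U2AF1 and −0.00079 to 0.077 for CDC5L.

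The labels share replicate numbers between groups but do not say that a number marks a shared culture, and deviations of same-numbered libraries correlated at −0.01 across genes. With a replicate block the counts were 27 members lower and 0 higher and 5465 genes called. U2AF1 had the fewest counts of the members, 304 over the 4 libraries.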
